A study of Homo sapiens with 11 samples.

Results

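The subject is a pair of MDA-MB231 vehicle libraries, which are 2 of the 11 RNA-seq libraries of a series on methyl methanesulfonate (MMS) and chemotherapy drugs in 2 human cancer lines. Their labels define the pair, which was taken up with earlier results of these data known. Ctrl_8hr and Control are the MDA-MB231 libraries that carry the vehicle DMSO as their treatment, and no drug separates them. MDA-MB231 is a basal, triple-negative breast cancer line, and the comparison line U2OS is an osteosarcoma line with 5 libraries. Both lines were grown in DMEM with 10% fetal bovine serum, and total RNA was taken with a silica-column kit from dishes that were not yet confluent. Ctrl_8hr is described as having no treatment although its treatment label is DMSO, and no duration is given for Control. The other 4 MDA-MB231 libraries are MMS_8hr (MMS at 40 µg/mL), Doxorubicin (1 µM), Etoposide (20 µM) and Paclitaxel (0.2 µM), each after 8 h. The 5 U2OS libraries are Control (DMSO, no duration given) and the same 4 drugs at the same doses, each after 8 h. Only Ctrl_8hr and MMS_8hr carry the 8hr form of title. Each group is 1 library, and the labels do not say whether Ctrl_8hr and Control came from the same day, passage or sequencing run.

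Cultured cells run programs that answer the medium around them. The HIF factors accumulate when oxygen is short and raise genes for glucose transport, glycolysis and vessel growth. ATF4 is translated when amino acids run short or the endoplasmic reticulum is loaded, and it raises amino acid transporters, synthesis enzymes and tRNA synthetases. NF-kB raises cytokines and chemokines, of which this line makes many. The X-linked cancer-testis antigens are genes of the germ line that other healthy tissues keep silent through methylation of CpG sites in their promoters. Many tumours express them. This group was taken up after the values were seen.

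Counts assigned to genes came to 16774156 in Ctrl_8hr and 25506368 in Control. Reads aligned to several places made up 30.4% of the tabulated reads in Ctrl_8hr and 30.0% in Control, and reads outside genes 7.16% in Ctrl_8hr and 8.16% in Control. All 20 marker genes listed for MDA-MB231 reached a CPM of 5 (the count scaled to library size) in the pair, and their summed level was 11513 CPM in Ctrl_8hr and 12589 CPM in Control. In U2OS Control the same genes summed to 8719 CPM, so a high sum is not particular to MDA-MB231. The pair differed by more than counting noise, with a chi-square statistic per degree of freedom of 26.7, so they were not 1 library deposited again.

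A gene was counted as apart where its log2 ratio of CPM (Ctrl_8hr over Control, 0.5 added to each CPM) reached 2-fold and its larger CPM was at least 5. Of 10832 genes with that level, 91 were at least 2-fold higher in Ctrl_8hr (0.84%) and 102 at least 2-fold lower (0.942%), together 193 genes (1.78%). With total counts for scaling the split was 74 higher and 124 lower. The median log2 ratio was 0.02 and its SD across genes 0.37, and 92.6% of genes lay within 1.5-fold. With 1 library a side there is no replicate check, and the 95% intervals given with folds cover counting error only. The interval left out 1 for 6526 of the 10832 genes. It did so for all 193, which at these depths follows from the cutoffs on fold and CPM.

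**Figure D1:**
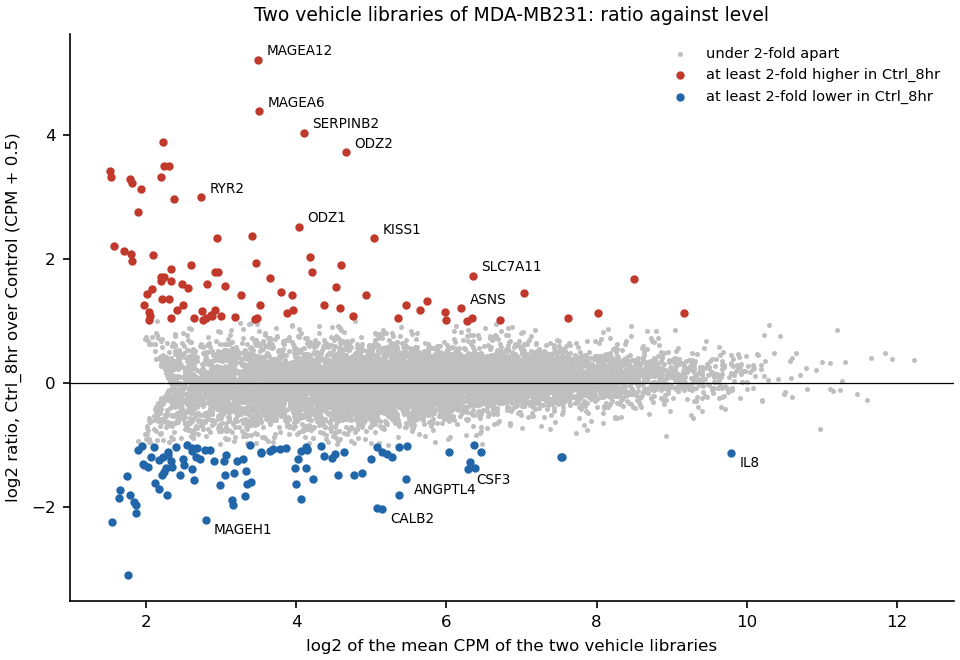
Log2 ratio of Ctrl_8hr over Control (vertical axis, CPM + 0.5) against the log2 of the mean CPM of both libraries (horizontal axis), 1 point for each of 10832 genes. Red points are the 91 genes at least 2-fold higher in Ctrl_8hr and blue points the 102 at least 2-fold lower; MAGEA12 stands highest at 5.21.

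On the same count, the drug libraries show how wide this gap is. MMS_8hr against Ctrl_8hr had 661 genes at least 2-fold apart (6.12%). Against Control, Doxorubicin had 3050 (27.4%), Etoposide 2178 (19.7%) and Paclitaxel 52 (0.48%). The vehicle libraries thus lay 193 genes apart while Paclitaxel and Control lay 52 apart. Set against the other vehicle, Paclitaxel had 396 genes against Ctrl_8hr and MMS_8hr had 975 against Control. Doxorubicin had 3707 and Etoposide 2578 against Ctrl_8hr. The count was therefore larger for all 4 drugs when the vehicle of the other title form was used, and for Paclitaxel it changed most in proportion.

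The highest ratio belonged to MAGEA12, a cancer-testis antigen on chromosome X. MAGEA12 had 22.4 CPM in Ctrl_8hr and 26.01 CPM in MMS_8hr, against 0.401 CPM with doxorubicin, 0.195 CPM with etoposide, 0.318 CPM with paclitaxel and 0.118 CPM in Control. Its reads numbered 355 in Ctrl_8hr and 3 in Control, a ratio of 189.7 with a counting interval from 64.4 to 924. MAGEA6 had 22.1 CPM in Ctrl_8hr and 21.7 CPM in MMS_8hr, against 0.579 CPM with doxorubicin, 0.552 CPM with etoposide, 0.530 CPM with paclitaxel and 0.590 CPM in Control. For both genes the 2 libraries with the 8hr title stood far above the other 4, with no overlap. MAGEA6 is uncertain as a single gene, because MAGEA3 is a near-identical copy and reads that match both may be dropped or split. MAGEA3 itself had 41 reads in Ctrl_8hr, 69 in MMS_8hr and 3 in Control.

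CSAG1, the divergent neighbour of MAGEA12, had 90 reads in Ctrl_8hr and 198 in MMS_8hr, against 4 with doxorubicin, 1 with etoposide, 5 with paclitaxel and 3 in Control. The start windows of MAGEA12 and CSAG1 overlap on opposite strands, so both genes read out of the same stretch, and those of MAGEA6 and MAGEA3 share 100% of their bases. They are printed here because these genes carry the largest differences of the pair. The windows run from 250 bases before to 50 after a start (RefSeq, GRCh38.p14), and capitals mark CpG dinucleotides, of which there are 15 for MAGEA12, 16 for CSAG1 and 19 for MAGEA6, beside a median of 14 over all 35116 windows. MAGEA12 has a second annotated start with 9 CpG dinucleotides. Among the cancer-testis genes described below, SSX1 has 5 and MAGEA11 21, both genes higher in Ctrl_8hr. MAGEA4, which was lower in Ctrl_8hr, has several annotated starts with 10 to 15. No methylation was measured.
MAGEA12 (chrX:152733612-152733911, plus strand): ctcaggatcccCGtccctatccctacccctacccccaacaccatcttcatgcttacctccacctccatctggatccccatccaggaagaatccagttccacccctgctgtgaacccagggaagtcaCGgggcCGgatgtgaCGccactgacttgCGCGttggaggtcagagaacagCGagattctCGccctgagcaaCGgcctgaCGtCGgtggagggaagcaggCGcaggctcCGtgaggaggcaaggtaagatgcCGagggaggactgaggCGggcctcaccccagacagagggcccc
CSAG1 (chrX:152733672-152733971, minus strand): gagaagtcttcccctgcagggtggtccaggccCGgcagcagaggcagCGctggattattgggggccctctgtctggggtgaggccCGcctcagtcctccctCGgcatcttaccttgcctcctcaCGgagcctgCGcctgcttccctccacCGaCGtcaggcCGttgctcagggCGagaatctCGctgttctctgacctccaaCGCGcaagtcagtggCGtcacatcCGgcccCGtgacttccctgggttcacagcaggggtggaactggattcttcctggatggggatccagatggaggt
MAGEA6 (chrX:152769640-152769939, minus strand): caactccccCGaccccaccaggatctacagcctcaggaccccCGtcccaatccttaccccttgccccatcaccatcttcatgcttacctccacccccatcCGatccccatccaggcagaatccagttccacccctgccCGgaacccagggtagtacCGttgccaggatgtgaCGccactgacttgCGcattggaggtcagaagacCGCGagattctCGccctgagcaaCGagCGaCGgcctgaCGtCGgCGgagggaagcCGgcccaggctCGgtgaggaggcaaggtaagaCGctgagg

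The X-linked cancer-testis families MAGEA, MAGEB, MAGEC, SSX, CSAG, GAGE, PAGE, XAGE and CTAG have 69 genes in the tables, and 14 reached 10 reads in an MDA-MB231 library. Close copies such as CSAG2 and CSAG3, SSX2 and SSX2B, and XAGE1A and XAGE1B had 0 reads in every MDA-MB231 library. Reads that match several copies may be dropped, so a 0 there does not show that a gene is silent. This grouping was made after the values were seen. SSX1 had 114 reads in Ctrl_8hr and 34 in Control, a ratio of 5.37 (counting interval 3.64 to 8.13), and 249 in MMS_8hr. MAGEC1 had 321 reads in Ctrl_8hr and 230 in Control, a ratio of 2.24 (1.88 to 2.66), and 504 in MMS_8hr. MAGEA11 had 27 reads in Ctrl_8hr and 13 in Control, and CTAG2, whose reads may be shared with its CTAG1 copies, had 17 in Ctrl_8hr and 2 in Control. In CPM, each of these 4 genes was higher in both libraries with the 8hr title than in any of the other 4.

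MAGEA4 went the other way. It had 0 reads in Ctrl_8hr and 1 in MMS_8hr, against 31 with doxorubicin, 71 with etoposide, 35 with paclitaxel and 48 in Control, and was at least 9.98-fold lower in Ctrl_8hr than in Control with a floor of 3 reads per library. MAGEC3 had 9 reads in Ctrl_8hr, 12 in MMS_8hr and 0 in the other 4 libraries, which makes it at least 4.81-fold higher in Ctrl_8hr than in Control on the same floor. MAGEC2 (41 reads in Ctrl_8hr, 46 in Control) and PAGE5 (87 reads in Ctrl_8hr, 108 in Control) had counting intervals of the ratio that hold 1. So did MAGEA10 (5 reads in Ctrl_8hr, 2 in Control) and MAGEB2 (12 reads in Ctrl_8hr, 7 in Control). Single members of the family therefore differed in opposite directions between the libraries.

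SERPINB2 had 32.8 CPM in Ctrl_8hr and 147 CPM in MMS_8hr, against 6.37 CPM with doxorubicin, 1.04 CPM with etoposide, 2.05 CPM with paclitaxel and 1.53 CPM in Control. SERPINB2 encodes a plasminogen activator inhibitor, and its ratio was 21.4 (15.4 to 30.4). ODZ2 had 47.4 CPM in Ctrl_8hr and 19.8 CPM in MMS_8hr, against 2.58 CPM with doxorubicin, 0.812 CPM with etoposide, 2.40 CPM with paclitaxel and 3.15 CPM in Control. ODZ2 and its relative ODZ1 encode teneurins, large transmembrane proteins of cell adhesion. KISS1 had 55.2 CPM in Ctrl_8hr and 50.7 CPM in MMS_8hr, against 21.5 CPM with doxorubicin, 8.31 CPM with etoposide, 11.2 CPM with paclitaxel and 10.5 CPM in Control. KISS1 encodes the precursor of the kisspeptins and is known as a suppressor of metastasis.

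SLC1A3 had 29.5 CPM in Ctrl_8hr and 21.9 CPM in MMS_8hr, against 8.86 CPM with doxorubicin, 7.92 CPM with etoposide, 8.31 CPM with paclitaxel and 6.81 CPM in Control. SLC1A3 is a glutamate and aspartate transporter. RYR2 had 12.2 CPM in Ctrl_8hr and 9.01 CPM in MMS_8hr, against 1.02 CPM with doxorubicin, 0.520 CPM with etoposide, 1.56 CPM with paclitaxel and 1.10 CPM in Control. RYR2 is the calcium release channel of heart muscle. In SERPINB2, ODZ2, KISS1, SLC1A3 and RYR2, Ctrl_8hr and MMS_8hr were both above the other 4 libraries. The remaining genes of the 15 highest were ODZ1 (log2 ratio 2.52), ALPP (2.34), EREG (1.93), KCNAB2 (1.90), DIO2 (1.79), PCDH7 (1.78), RIMS2 (1.78) and SLC7A11 (1.73). ALPP is the placental alkaline phosphatase and EREG the EGF receptor ligand epiregulin. PCDH7 was not set apart by title form, with 12.05 CPM in Ctrl_8hr and 5.19 CPM in MMS_8hr beside 16.6 CPM with etoposide.

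The lowest ratio by the naming rule was that of MAGEH1, a MAGE family gene that is not a cancer-testis antigen of the MAGEA to MAGEC type. MAGEH1 had 2.14 CPM in Ctrl_8hr and 3.73 CPM in MMS_8hr, against 5.39 CPM with doxorubicin, 16.5 CPM with etoposide, 9.72 CPM with paclitaxel and 11.7 CPM in Control. CALB2 had 13.6 CPM in Ctrl_8hr and 13.5 CPM in MMS_8hr, against 109 CPM with doxorubicin, 35.98 CPM with etoposide, 56.9 CPM with paclitaxel and 57.3 CPM in Control. CHRDL1 had 12.99 CPM in Ctrl_8hr and 9.41 CPM in MMS_8hr, against 91.6 CPM with doxorubicin, 48.4 CPM with etoposide, 52.7 CPM with paclitaxel and 54.5 CPM in Control. CALB2 encodes the calcium binding protein calretinin and CHRDL1 an antagonist of bone morphogenetic proteins. For CALB2 and CHRDL1 both libraries with the 8hr title lay below the other 4, and for MAGEH1 they did so by a smaller margin, with Doxorubicin next.

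The other genes of the 15 lowest had log2 ratios between -1.89 and -1.48. They were GABRE, DAPK1, CST2, PDZK1IP1, FNDC4, PARM1, CYB5R2, IFI27, ANGPTL4, TSPYL5, NEURL1B and KLF13. DAPK1 is a kinase of cell death pathways, IFI27 is an interferon-stimulated gene and ANGPTL4 an inhibitor of lipoprotein lipase that HIF and PPAR factors raise. DAPK1 had 6.87 CPM in Ctrl_8hr and 5.15 CPM in MMS_8hr, against 17.5 CPM with doxorubicin, 9.68 CPM with etoposide, 24.3 CPM with paclitaxel and 26.6 CPM in Control. IFI27 had 4.98 CPM in Ctrl_8hr and 3.33 CPM in MMS_8hr, against 45.2 CPM with doxorubicin, 18.5 CPM with etoposide, 17.2 CPM with paclitaxel and 16.1 CPM in Control. KLF13, a zinc finger repressor, did not follow the title form, with 14.2 CPM in Ctrl_8hr and 29.3 CPM in MMS_8hr, against 28.5 CPM with doxorubicin and 40.6 CPM in Control.

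**Figure D2:**
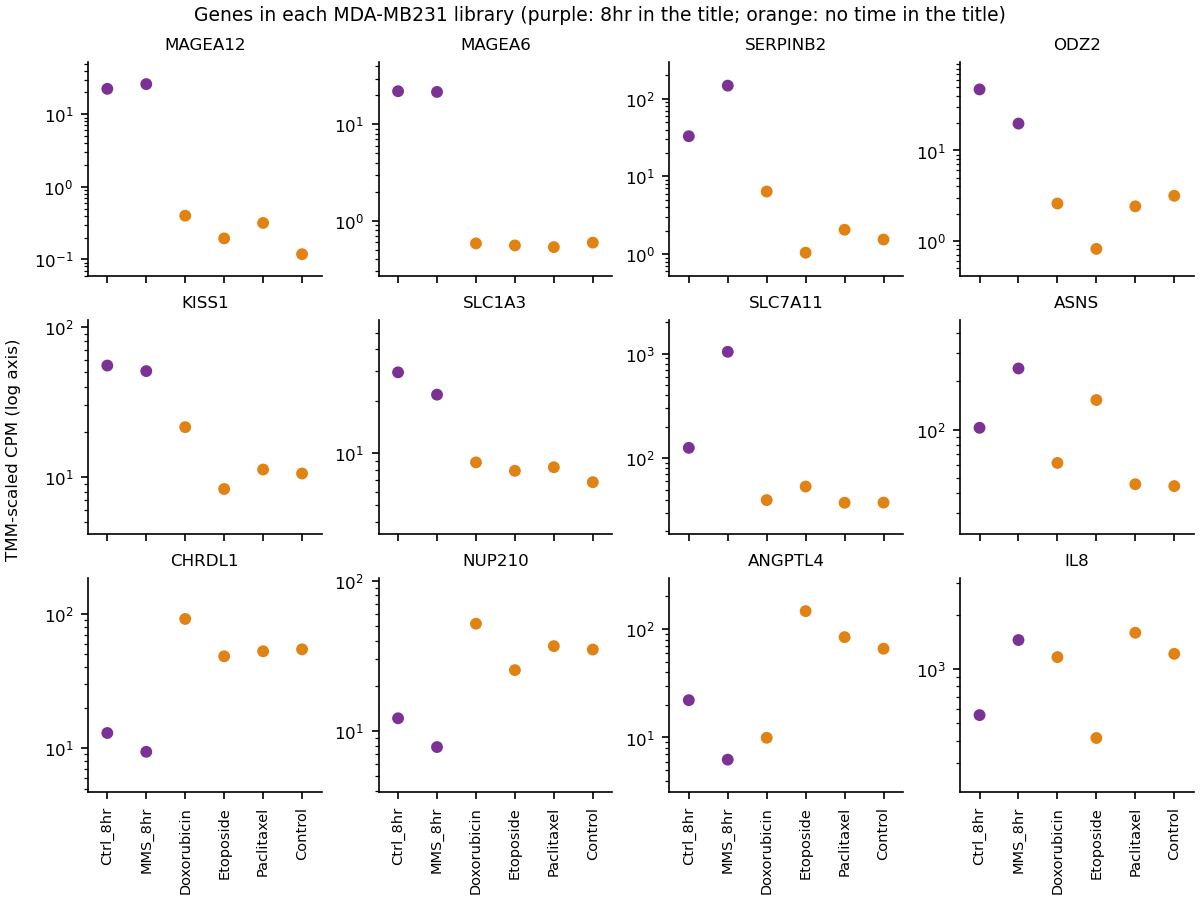
TMM-scaled CPM (vertical log axis, its range set for each gene) of 12 genes in each MDA-MB231 library, 1 point per library; purple marks the 2 libraries with 8hr in the title and orange the other 4. MAGEA12, MAGEA6, SERPINB2, ODZ2, KISS1, SLC1A3 and SLC7A11 are highest in the purple libraries and CHRDL1 and NUP210 lowest, while ASNS and IL8 do not separate by title form.

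Genes of the amino acid and integrated stress response were higher in Ctrl_8hr. Of 39 listed members at 5 CPM or more, 3 were at least 2-fold higher and 0 lower, 9 were at least 1.5-fold higher and 2 lower, and the median log2 ratio was 0.24 beside 0.02 over all genes, where 3.25% were 1.5-fold higher and 4.13% lower. The 3 were SLC7A11, ASNS and SLC7A5. SLC7A11 had 126 CPM in Ctrl_8hr and 1043 CPM in MMS_8hr, against 39.6 CPM with doxorubicin, 53.5 CPM with etoposide, 37.4 CPM with paclitaxel and 37.5 CPM in Control. SLC7A11 is the cystine and glutamate exchanger. ASNS had 103 CPM in Ctrl_8hr and 241 CPM in MMS_8hr, against 61.8 CPM with doxorubicin, 153 CPM with etoposide, 45.5 CPM with paclitaxel and 44.3 CPM in Control. ASNS makes asparagine from aspartate and glutamine. SLC7A5 had 784 CPM in Ctrl_8hr and 1076 CPM in MMS_8hr, against 452 CPM with doxorubicin, 245 CPM with etoposide, 372 CPM with paclitaxel and 358 CPM in Control. SLC7A5 is the light chain of the large neutral amino acid transporter. Ctrl_8hr lay above Control in each of these genes, but Etoposide was above Ctrl_8hr for ASNS.

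The serine synthesis enzymes had smaller differences in the same direction. PHGDH had 29.01 CPM in Ctrl_8hr and 15.3 CPM in Control (log2 ratio 0.90), and PSAT1 had 220.0 CPM in Ctrl_8hr and 136 CPM in Control (0.69). Of the regulators in the same list, ATF4 itself had a log2 ratio of 0.13, the pseudokinase TRIB3 0.36, the death-linked factor DDIT3 -0.16 and the glutathione-degrading enzyme CHAC1 -0.05. VLDLR (-0.60) and VEGFA (-0.64) were the lowest members.

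Cytosolic aminoacyl-tRNA synthetases, which load amino acids onto tRNAs, had 17 of 20 members above 0 and a median log2 ratio of 0.27. None reached 2-fold, and the range ran from -0.34 for QARS to 0.72 for GARS. In the list of endoplasmic reticulum chaperones 21 of 25 were above 0, with a median of 0.19 and no member at 2-fold. Among ribosome biogenesis genes 33 of 39 were above 0, the median was 0.24, and UTP20, a component of the small subunit processome, had 264 CPM in Ctrl_8hr and 128 CPM in Control. UTP20 (log2 ratio 1.04) was the member at 2-fold and was under it, at 0.96, when total counts were used for scaling. Of all 10832 genes, 5814 were above 0.

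A start window of ASNS is printed as that of a well-known ATF4 target. Capitals mark the match to TGATGNAAN, a form of the composite site that ATF4 binds with C/EBP partners. It was searched on both strands, and a match describes letters and not binding. Of 56 windows for 36 listed genes, 10 (17.9%) held it, beside 3.61% of all 35116 windows. ASNS has a second annotated start, whose window held no match, and PHGDH, PSAT1 and SLC7A5 held none in theirs.
ASNS (chr7:97872359-97872658, minus strand): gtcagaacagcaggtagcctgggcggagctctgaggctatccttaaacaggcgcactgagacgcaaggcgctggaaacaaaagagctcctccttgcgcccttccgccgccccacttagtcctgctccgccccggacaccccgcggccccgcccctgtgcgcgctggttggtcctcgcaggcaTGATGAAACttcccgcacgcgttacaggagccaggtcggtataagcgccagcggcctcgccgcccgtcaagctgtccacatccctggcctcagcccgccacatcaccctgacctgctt

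Inflammatory cytokines and chemokines were lower in Ctrl_8hr. Of 17 listed members at 5 CPM or more, 6 were at least 2-fold lower and 1 higher, beside 0.942% and 0.84% of all genes. The median log2 ratio of the list was -0.57. The median was closer to 0 when weaker members entered, at -0.36 with a larger CPM of at least 1 and -0.21 for all 33 with no minimum. The 6 were CSF3, CSF2, CXCL3, IL8, CXCL2 and IL6, the colony-stimulating factors, neutrophil chemokines and interleukin for which this line is known. IL8 had 554 CPM in Ctrl_8hr and 1446 CPM in MMS_8hr, against 1162 CPM with doxorubicin, 414 CPM with etoposide, 1587 CPM with paclitaxel and 1212 CPM in Control. CSF3 had 42.9 CPM in Ctrl_8hr and 65.6 CPM in MMS_8hr, against 26.5 CPM with doxorubicin, 32.5 CPM with etoposide, 171 CPM with paclitaxel and 113 CPM in Control. CSF2 had 46.5 CPM in Ctrl_8hr and 21.2 CPM in MMS_8hr, against 62.1 CPM with doxorubicin, 30.5 CPM with etoposide, 139 CPM with paclitaxel and 121 CPM in Control. Paclitaxel and Control were the 2 highest libraries for CSF3 and CSF2, and Ctrl_8hr lay below both.

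CXCL3 had 23.2 CPM in Ctrl_8hr and 165 CPM in MMS_8hr, against 310.4 CPM with doxorubicin, 16.9 CPM with etoposide, 52.7 CPM with paclitaxel and 54.03 CPM in Control. CXCL2 had 26.9 CPM in Ctrl_8hr and 153 CPM in MMS_8hr, against 56.3 CPM with doxorubicin, 22.7 CPM with etoposide, 59.7 CPM with paclitaxel and 55.4 CPM in Control. IL6 had 54.9 CPM in Ctrl_8hr and 90.2 CPM in MMS_8hr, against 141 CPM with doxorubicin, 28.3 CPM with etoposide, 145 CPM with paclitaxel and 110.4 CPM in Control. For these genes Ctrl_8hr and Etoposide were the lowest libraries, and MMS_8hr lay above Ctrl_8hr in each. The cytokines therefore set Ctrl_8hr apart from Control without setting the 8hr title form apart from the rest. IL6 sat at the threshold, with a log2 ratio of -1.002. IL24 was the member higher in Ctrl_8hr, with 21.6 CPM against 9.37 CPM in Control. CXCL1 had a log2 ratio of -0.86, LIF -0.44, IL1A -0.48 and IL1B 0.24.

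The NF-kB feedback genes did not show the same size of difference: 0 of 23 were at 2-fold in either direction, and the median was -0.11. NFKBIA, the inhibitor that NF-kB induces to end its own signal, had a log2 ratio of -0.40, and TNFAIP3, another such inhibitor, 0.18. PTGS2, the inducible cyclooxygenase, was the highest member at 0.80 and BCL2A1 the lowest at -0.75. The windows of CXCL3 and CXCL2 are printed because both genes were lower and both hold a common form of the NF-kB site, marked in capitals. Searched on both strands, 8 of 25 windows for 21 listed genes held this form (32.0%), beside 1.91% of all windows. The window of IL6 held this form as well, while those of IL8 and CSF2 did not. Other forms of the NF-kB site were not searched, so a window without a match is not shown to lack such a site.
CXCL3 (chr4:74038640-74038939, minus strand): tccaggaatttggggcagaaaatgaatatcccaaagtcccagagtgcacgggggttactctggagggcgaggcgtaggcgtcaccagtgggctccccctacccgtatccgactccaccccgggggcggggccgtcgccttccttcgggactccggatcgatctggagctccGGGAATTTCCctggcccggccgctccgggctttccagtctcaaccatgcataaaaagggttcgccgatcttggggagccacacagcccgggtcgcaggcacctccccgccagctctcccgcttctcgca
CXCL2 (chr4:74099146-74099445, minus strand): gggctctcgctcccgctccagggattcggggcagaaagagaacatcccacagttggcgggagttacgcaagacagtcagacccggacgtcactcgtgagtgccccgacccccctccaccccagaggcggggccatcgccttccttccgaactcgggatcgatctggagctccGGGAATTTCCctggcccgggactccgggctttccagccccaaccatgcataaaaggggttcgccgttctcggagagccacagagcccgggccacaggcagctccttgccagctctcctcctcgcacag

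Hypoxia genes were lower as a list in Ctrl_8hr, by less than 2-fold for most. Of 37 members at 5 CPM or more, 27 were below 0, 9 were at least 1.5-fold lower and 2 higher. At 2-fold 1 was lower and 0 higher, and the median log2 ratio was -0.30. Of all 10832 genes, 5018 were below 0, 4.13% were at least 1.5-fold lower and 3.25% higher, and 0.942% were 2-fold lower. ANGPTL4 had 22.1 CPM in Ctrl_8hr and 6.25 CPM in MMS_8hr, against 9.93 CPM with doxorubicin, 146 CPM with etoposide, 84.1 CPM with paclitaxel and 65.8 CPM in Control. NDRG1 had 59.4 CPM in Ctrl_8hr and 94.3 CPM in MMS_8hr, against 379 CPM with doxorubicin, 468 CPM with etoposide, 269.9 CPM with paclitaxel and 118 CPM in Control. NDRG1, a growth arrest gene that hypoxia raises, had a log2 ratio of -0.98, just under 2-fold, and -1.06 with total counts for scaling. Ctrl_8hr lay below Control for both genes. For NDRG1, Ctrl_8hr and MMS_8hr both lay below the other 4 libraries. For ANGPTL4, MMS_8hr was the lowest library, but Ctrl_8hr lay above Doxorubicin.

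VEGFA, the main vessel growth factor, had 211 CPM in Ctrl_8hr and 330.5 CPM in Control (log2 ratio -0.64). PDK1, which keeps pyruvate out of the mitochondrion, had -0.57 and the mitophagy receptor BNIP3 -0.49. Other classical members went the other way or lay near 0: ADM, a vessel-dilating peptide, had 0.63, TMEM45A 0.72 and the glucose transporter SLC2A1 -0.17. CA9, the carbonic anhydrase often used as the hypoxia marker, was too low to place, with 14 reads in Ctrl_8hr and 10 in Control and a counting interval of the ratio from 0.927 to 5.65. Among 17 glycolysis enzymes the median was -0.05 and 1 was 2-fold lower, ENO2 (-1.11), while LDHA, which makes lactate, had -0.23 and HK2 0.36.

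The window of ANGPTL4, the lowest hypoxia gene, is printed with the core hypoxia response letters ACGTG in capitals, found here on the reverse strand. These letters stood in 26 of 46 windows for 34 listed genes (56.5%), beside 21.4% of all windows. So short a motif is common, and a match says nothing of HIF binding in these cells.
ANGPTL4 (chr19:8363905-8364204, plus strand): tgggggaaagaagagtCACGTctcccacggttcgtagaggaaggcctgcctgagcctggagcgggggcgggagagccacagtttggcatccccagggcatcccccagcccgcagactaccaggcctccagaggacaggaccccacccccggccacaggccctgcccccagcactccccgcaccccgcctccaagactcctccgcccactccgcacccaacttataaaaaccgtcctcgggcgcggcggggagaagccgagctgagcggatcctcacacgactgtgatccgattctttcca

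Proliferation genes lay less than 1.5-fold apart between the libraries. Of 49 genes of G2 and M phase, 0 were 1.5-fold apart in either direction and 34 were below 0. Their median log2 ratio was -0.08, with a range from -0.50 for CDCA3 to 0.44 for MKI67. Of 54 genes of DNA replication and G1/S, 0 were 1.5-fold apart and 36 were above 0, with a median of 0.08. Over all 10832 genes 5018 were below 0 and 5814 above. MKI67 had 1023 CPM in Ctrl_8hr and 809 CPM in MMS_8hr, against 216 CPM with doxorubicin, 390.0 CPM with etoposide, 924 CPM with paclitaxel and 753 CPM in Control. MKI67 encodes the proliferation marker Ki-67. CCNB1, the mitotic cyclin, had a log2 ratio of -0.05, TOP2A, the topoisomerase of dividing cells, 0.02, and PCNA, the replication clamp, -0.02. MYC had -0.02 and CCND1 0.30. In bulk RNA a smaller share of cells in a state and less RNA per such cell cannot be told apart.

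Of the replication-dependent histone genes, 4 of 55 reached 5 CPM. All 4 were at least 1.5-fold lower in Ctrl_8hr, beside 4.13% of all genes. They were HIST1H2AC (-0.79), HIST1H2BK (-0.73), HIST1H1C (-0.67) and HIST1H2BD (-0.58), which are multi-copy genes on chromosome 6 and uncertain for that reason. The selection of RNA species is not given, and the 4 had far higher levels with etoposide, such as 84.6 CPM for HIST1H2AC beside 5.61 CPM in Ctrl_8hr and 10.03 CPM in Control.

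**Figure D3:**
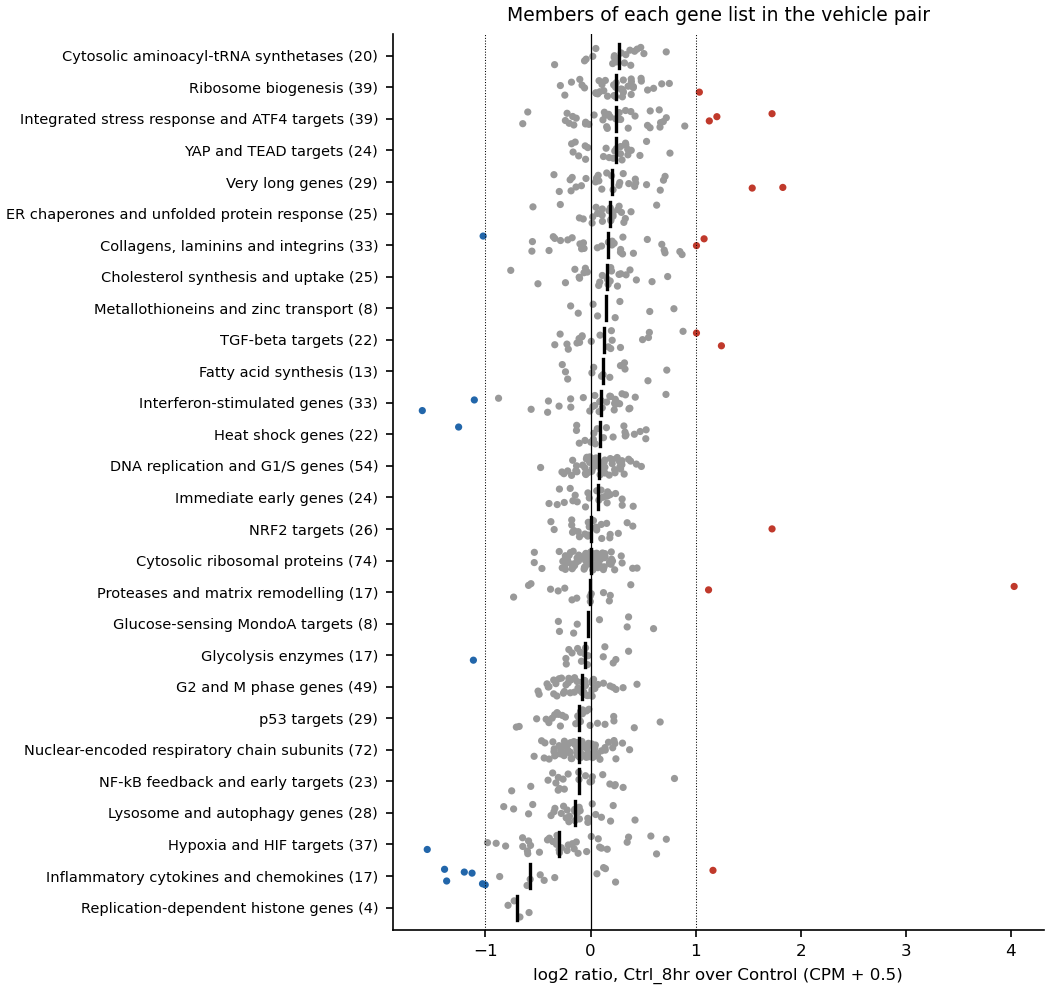
Log2 ratio of Ctrl_8hr over Control (horizontal axis, CPM + 0.5) for the members of each gene list with a larger CPM of at least 5, their number in brackets; the black bar is the list median, red and blue points are at least 2-fold higher and lower in Ctrl_8hr, and dotted lines mark 2-fold. The cytokine list is centred at -0.57 and the tRNA synthetase list at 0.27.

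Of 33 collagen, laminin and integrin genes, 2 were 2-fold higher, LAMA4 (1.08) and COL4A1 (1.01), and 1 lower, ITGB4 (-1.02), and 7 were 1.5-fold higher and 1 lower. All 3 were close to the threshold, and with total counts for scaling COL4A1 was under it, at 0.93. COL4A1 had 139.8 CPM in Ctrl_8hr and 68.05 CPM in MMS_8hr, against 97.2 CPM with doxorubicin, 51.2 CPM with etoposide, 68.1 CPM with paclitaxel and 69.2 CPM in Control. ITGB4 had 29.1 CPM in Ctrl_8hr and 22.9 CPM in MMS_8hr, against 45.6 CPM with doxorubicin, 19.5 CPM with etoposide, 71.5 CPM with paclitaxel and 59.7 CPM in Control. COL4A1 is a chain of basement membrane collagen and ITGB4 the integrin chain of hemidesmosomes. Among TGF-beta targets 2 of 22 were 2-fold higher, LTBP3 (1.25), which stores latent TGF-beta, and the same COL4A1. Among proteases and matrix enzymes SERPINB2 and the metalloproteinase ADAMTS1 (1.12) were 2-fold higher and 0 of 17 lower. Of 29 very long genes TCF4 (1.83) and GPC6 (1.54) were 2-fold higher and 0 lower, with a median of 0.20. Beside these lists, 0.84% of all genes were 2-fold higher and 0.942% lower, and 3.25% were 1.5-fold higher and 4.13% lower.

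The remaining programs had small medians. YAP and TEAD targets had a median log2 ratio of 0.24, with CTGF at 0.29 and CYR61 at -0.15. Cholesterol genes had 0.16, with HMGCS1 at -0.05, and fatty acid synthesis genes had 0.12, with FASN at 0.73. Interferon-stimulated genes had 0.10, with 2 of 33 at least 2-fold lower, IFI27 (-1.60) and IFITM1 (-1.11), and 0 higher. Over all genes 0.942% were at least 2-fold lower and 0.84% higher. Lists on the lower side were lysosome genes (-0.15), respiratory chain subunits (-0.11, 53 of 72 below 0) and p53 targets (-0.11, 23 of 29 below 0, with CDKN1A at -0.51). Of all 10832 genes, 5018 were below 0. Heat shock genes had 0.09, with HSPB8 (-1.26) at least 2-fold lower, and metallothioneins 0.15. The medians of cytosolic ribosomal proteins (0.00), NRF2 targets (0.01), MondoA targets (-0.02) and immediate early genes (0.07) were within 0.1 of 0, and those of ribosomal proteins, NRF2 targets and immediate early genes changed sign under total count scaling, which lowered every ratio.

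Whether these differences stood in libraries other than the vehicle pair was looked at in the 8 drug libraries. For each gene, the log2 CPM of MMS minus the mean of doxorubicin, etoposide and paclitaxel was taken in MDA-MB231, where MMS_8hr is the only such library with the 8hr title, and the same in U2OS was subtracted. Of the 91 genes at least 2-fold higher in Ctrl_8hr, 86 were above 0 in this difference and 70 were at least 2-fold higher, with a median of 1.75. Over all 10832 genes 57.4% were above 0, 7.95% were at least 2-fold higher, and the median was 0.10. Of the 102 genes lower in Ctrl_8hr, 93 were below 0 and 57 at least 2-fold lower, with a median of -1.09, beside 42.6% and 3.46% over all genes. The difference uses neither vehicle library, but 1 library carries the 8hr form in it, and a response to MMS particular to MDA-MB231 would enter it too.

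In plain levels, MMS_8hr was above all 3 other MDA-MB231 drug libraries for 67 of the 91 higher genes (73.6%) and below all 3 for 85 of the 102 lower genes (83.3%), beside 28.2% and 20.8% of all genes. U2OS cells with MMS were above their 3 other drug libraries for 16 of the 91 (17.6%) and below for 43 of the 102 (42.2%), beside 26.2% and 27.6% of all genes. The programs did not all go along. The cytokine list had a median of -0.05 in the difference without the vehicles and -0.57 in the pair, the stress response list -0.66 and 0.24, the hypoxia list -0.07 and -0.30, and ribosome biogenesis 0.59 and 0.24. ASNS (-1.67) and ALPP (-1.41) were among the 5 higher genes that were below 0.

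**Figure D4:**
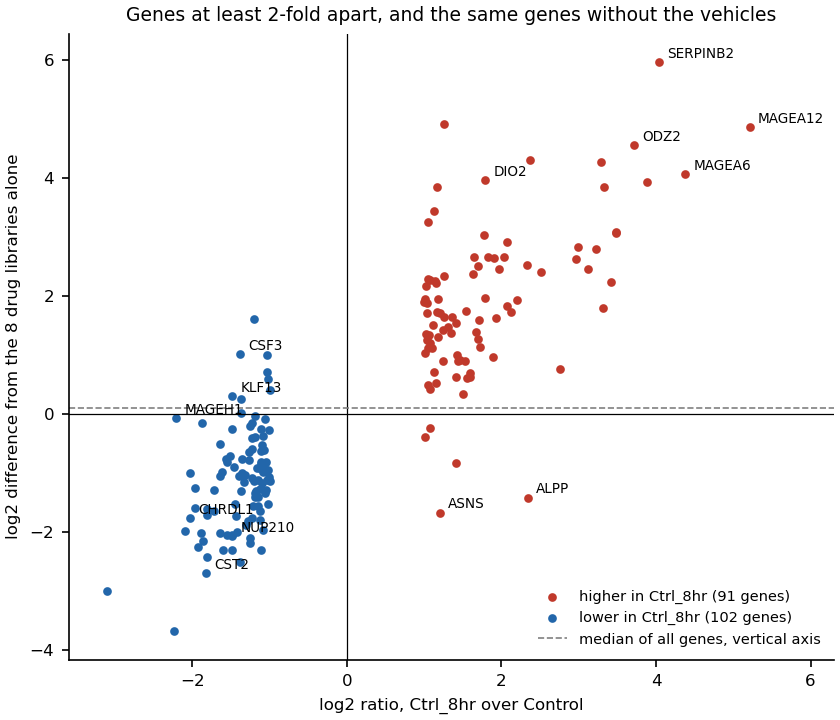
Log2 difference computed from the 8 drug libraries alone (vertical axis) against the log2 ratio of Ctrl_8hr over Control (horizontal axis) for the 91 genes at least 2-fold higher (red) and the 102 at least 2-fold lower (blue). Most red points lie above 0 and most blue points below it, with ASNS, ALPP and CSF3 among those that do not; the dashed line is the median of all genes, 0.10.

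A fit over all 11 libraries (edgeR, quasi-likelihood) asked which genes followed the title form once drug and line were accounted for. With 4 residual degrees of freedom it called 42 of 15888 genes at a Benjamini-Hochberg adjusted p under 0.05 (0.264%), 31 higher (0.195%) and 11 lower (0.0692%) in the 2 libraries with the 8hr title, and 1799 had an unadjusted p under 0.05. Of the genes 2-fold apart in the pair, 19 of the 91 and 8 of the 102 were called in the same direction. The fit holds the vehicle pair itself, so this count is no separate evidence. It also takes each drug to act alike in both lines, and departures from that make up its spread.

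By the same fit, MAGEA12 rose by 6.48 ± 0.33 (log2, SE; adjusted p = 8.9e-05), MAGEA6 by 5.12 ± 0.22 (adjusted p = 3.4e-05) and SERPINB2 by 4.97 ± 0.47 (adjusted p = 0.00526) in edgeR. ODZ2, RYR2, KISS1, ODZ1, SLC1A3 and EREG were also called, with log2 changes from 1.89 to 4.31. The lower genes named by the rule were CHRDL1, NUP210, HSPB8 and ZNF558. NUP210 had 12.2 CPM in Ctrl_8hr and 7.83 CPM in MMS_8hr, against 51.8 CPM with doxorubicin, 25.5 CPM with etoposide, 36.8 CPM with paclitaxel and 34.9 CPM in Control. NUP210, a nuclear pore membrane protein, fell by 1.79 ± 0.20 in edgeR (adjusted p = 0.0104). The calls of MAGEA12 and MAGEA6 held in all 16 other settings tried, while each of the others was lost in some. These settings are not separate checks. Leaving out either line's library of a drug gives nearly the same fit, and most settings keep both vehicle libraries. The call was lost in 12 settings for CHRDL1 (adjusted p = 0.0494 in edgeR) and HSPB8, 11 for ZNF558, 10 for EREG, 7 for ODZ2, 6 for RYR2 and ODZ1, 5 for KISS1, 4 for SLC1A3 and NUP210 and 1 for SERPINB2. Without Control the fit called 7 genes. Leaving out U2OS MMS gives nearly the same fit as leaving out MMS_8hr. In both, Ctrl_8hr alone carries the title-form term, as MMS_8hr does when Ctrl_8hr is left out. No counts are given for these fits.

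Neighbouring genes shared small shifts in some chromosome regions. With 10630 of the genes put in RefSeq order and split into 253 blocks of about 40 neighbours, a step chosen after the data were seen, 12 blocks had a median log2 ratio of -0.2 or less and 8 of 0.2 or more. With total counts for scaling, which lowers every ratio, the split was 25 and 2. The SD of the block medians was 0.115, against 0.050 for Paclitaxel over Control in MDA-MB231 and 0.040 for U2OS paclitaxel over U2OS Control, where 0 blocks passed either line. The comparison with MDA-MB231 Paclitaxel shares Control with the pair, and that in U2OS shares no library with it.

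The lowest run of blocks lay on chromosome 6 from BTN3A1 to C6orf125, which spans the major histocompatibility complex. Of its 121 genes 114 were below 0, with a median of -0.37, which is a ratio of 0.776, beside a median of 0.04 for Paclitaxel over Control and -0.32 in the difference without the vehicles. On chromosome 3 the run from ZNF621 to PRICKLE2 held 164 genes, 145 of them below 0, with a median of -0.29 in the pair and -0.13 without the vehicles. On chromosome 1 the run from NOC2L to TARDBP (82 genes) had -0.22 in the pair and -0.10 without the vehicles, and on chromosome 10 that from ZMYND11 to MTPAP (86 genes) had -0.21 and -0.01. At 2-fold, 3 of the 121 genes on chromosome 6 and 5 of the 164 on chromosome 3 were lower, beside 0.942% of all genes, and 1 was higher in each of the other runs.

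The highest block, on chromosome 13 from DNAJC3 to ZNF828, had 41 of 48 genes above 0, a median of 0.30 in the pair and 0.50 without the vehicles. By whole chromosome the medians ran from -0.12 on chromosome 6 and -0.11 on X to 0.13 on chromosome 16 and 0.14 on 13. The 2-fold genes were 3.9% of genes on X, with 7 higher and 7 lower of 359, and 0.429% on chromosome 16. Copy number was not measured, and no coordinates are given because the counts rest on another build than the gene order.

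**Figure D5:**
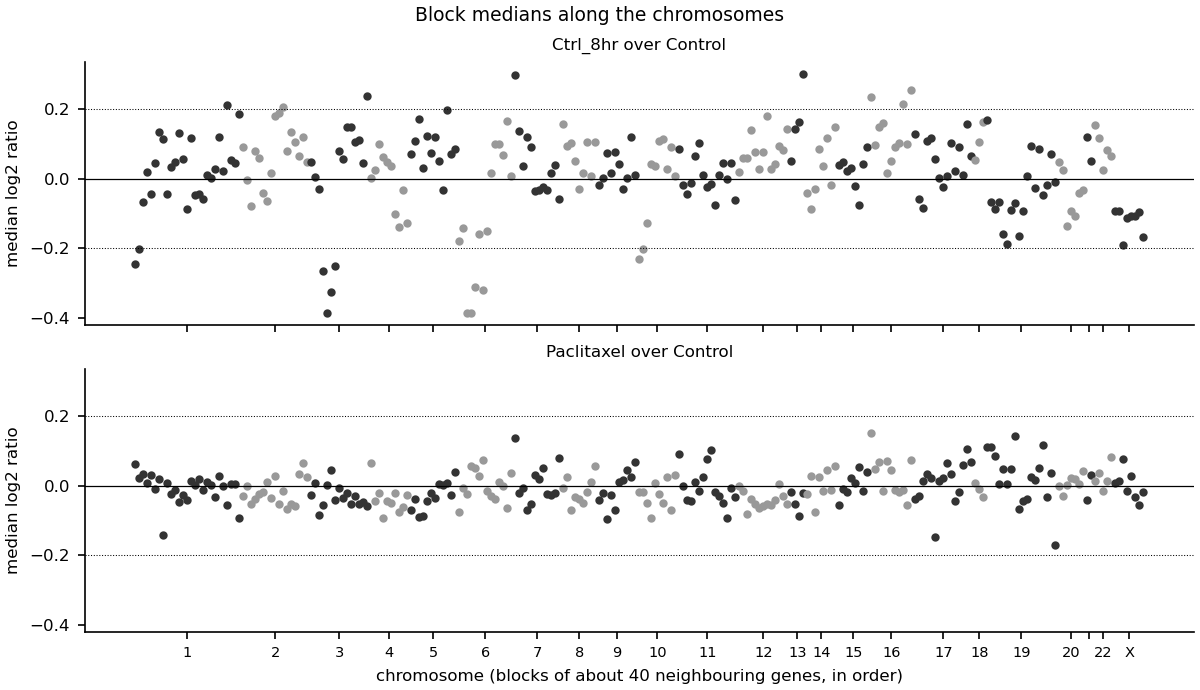
Median log2 ratio (vertical axis) of 253 blocks of about 40 neighbouring genes along the chromosomes (horizontal axis, in gene order, chromosomes in alternating shades), for Ctrl_8hr over Control above and for Paclitaxel over Control below; dotted lines mark -0.2 and 0.2. Runs of low blocks stand on chromosomes 1, 3, 6 and 10 in the upper panel, and no block passes either line in the lower panel.

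Markers of blood, fibroblast and endothelial cells were low in both vehicle libraries. Of 13 blood and immune genes CD14 reached 5 CPM, with 2.46 CPM in Ctrl_8hr and 7.20 CPM in Control, and 6 were at 0 in both, with a summed level of 3.85 CPM in Ctrl_8hr and 7.87 CPM in Control. Of 8 fibroblast genes 0 reached 5 CPM, 2 were at 0 in both, and their sum was 8.39 CPM in Ctrl_8hr and 2.52 CPM in Control, while of 7 endothelial genes KDR reached it and their sum was 18.4 CPM in Ctrl_8hr and 18.5 CPM in Control. The osteosarcoma markers summed to 433 CPM in Ctrl_8hr and 369.7 CPM in Control, beside 1088 CPM in U2OS Control. Of 16 luminal and epithelial breast genes listed as absent from MDA-MB231, 9 reached 5 CPM and 1 was at 0 in both. Their sum was 399.9 CPM in Ctrl_8hr and 452 CPM in Control, beside 189 CPM in U2OS Control, so not all of these genes were absent. KRT19, a simple epithelial keratin, had 133 CPM in Ctrl_8hr and 167 CPM in Control, while the oestrogen receptor ESR1 had 0.189 CPM in Ctrl_8hr and 0.0787 CPM in Control. The part of these markers in the differences above was not tested.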

How the data were processed

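The deposited values are raw counts of reads for 23228 gene symbols, with 5 summary rows in each library's table. Per the submitters' processing notes, CASAVA 1.8.2 made the base calls, TopHat2 2.0.8b the alignments and HTSeq (no version stated) the counts. Those notes name the builds hg19 and mm9. No source used here gives the RNA selection, read length or strand setting, so antisense partners cannot be told apart, and near-identical genes are uncertain. Nothing says that libraries came from separate cultures, so p-values measure the spread between these samples only.

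The summary rows were left out of library sizes. CPM were scaled with TMM over 11 libraries (edgeR 4.0.16, R 4.3.3), with 0.5 added before the log2 ratio. Fold intervals are exact binomial (Clopper-Pearson, 95%). The title-form fit used edgeR's robust quasi-likelihood test with drug and line as covariates and Benjamini-Hochberg adjustment over 15888 genes, and its SE is the log2 change over the square root of F. On simulated counts of 15381 genes it recovered 37 of 100 genes changed 2-fold and 91 of 100 changed 4-fold, with 6 false calls. The simulated counts held no effect of line or drug. They therefore do not show how the fit performs where a drug acts differently in the lines. DESeq2 1.42.0 and limma-voom 3.58.1 were alternatives.

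The pair, the 28 program lists, the 6 marker lists and the anchor genes were chosen with earlier results of these data known. Genes named are the 15 highest and 15 lowest ratios among genes at 10 CPM or more in either library, up to 4 members of a list (2 from each end), 45 anchors and up to 5 called genes at each end of the fit. SLC7A5, CXCL3, KRT19, ESR1, the cancer-testis genes and genes at the ends of chromosome runs were chosen after their values were seen. Pseudogenes, small or antisense RNAs and placeholders entered the counts but otherwise stay unnamed. Promoter windows matched 15492 genes of the tables by symbol or older symbol.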

Additional observations from a re-analysis of the deposited data

How the results depend on the processing

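No paired analysis was possible because each group is 1 library and no numbers pair the vehicle libraries. Scaling by total counts lowered the median log2 ratio of all genes to -0.05, and list medians became -0.13 for glycolysis enzymes, 0.20 for tRNA synthetases, -0.16 for G2 and M phase genes, 0.044 for fatty acid synthesis, 0.16 for YAP targets, 0.018 for heat shock genes, -0.076 for ribosomal proteins, 0.094 for collagens and -0.080 for proteases. With a larger CPM of at least 1, 189 genes were 2-fold higher in Ctrl_8hr and 194 lower, and the medians were -0.36 for cytokines and -0.37 for histones. At 20 CPM or more, 34 were higher and 38 lower, with medians of -0.13 for MondoA targets and -0.067 for proteases. Without a minimum, 218 were higher and 215 lower, with medians of -0.21 for cytokines, -0.018 for immediate early genes, 0 for metallothioneins, 0 for histones and 0.085 for collagens. More or fewer low genes enter under these minimums by construction. With 2 added to CPM 64 genes were lower. With Control thinned to the depth of Ctrl_8hr, 89 were higher and 102 lower. Paclitaxel had 396 genes apart from the other vehicle library. Without subtracting U2OS, 78 of the 91 and 93 of the 102 genes had the same sign in the 8 drug libraries.

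The title-form fit depended most on the tool and the libraries. DESeq2 called 304 genes (168 higher, 136 lower), limma-voom 33 (27 higher, 6 lower), edgeR without a filter 77 (53 higher, 24 lower), and the fit on the 6 MDA-MB231 libraries with U2OS Control and U2OS MMS 2 (2 higher, 0 lower; 788 with an unadjusted p under 0.05). Leaving out each library gave 5 to 48 called genes, 5 to 36 higher and 0 to 12 lower; without U2OS Control 20 were called, and without either Etoposide library 25. The cause was not tested. No list median further than 0.1 from 0 changed sign under the alternatives tried. In the title-form fit, 54 of 180 named genes with a value changed sign under at least 1 alternative, none of them among the 13 called. ASNS, at 0.19 (log2) over all libraries, ranged from -1.63 without Ctrl_8hr to 1.15 without MMS_8hr. In each of these fits 1 library carried the term. Ctrl_8hr is the shallower library, so differences between low genes are limited by its counting.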

Other observations

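The ratio of Ctrl_8hr over Control moved with transcript length across genes. With genes split into 4 equal classes by length, the class of the longest transcripts had a median log2 ratio of 0.13 and that of the shortest -0.06 (10584 genes with a length, longest transcript in GENCODE 29). Spearman's rho across genes was 0.26 with transcript length, 0.20 with the span of the gene and -0.08 with GC content. Genes share both libraries and are not independent replicates, so no p is given. The part of length in the medians of the gene lists was not tested.

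THY1, a surface protein used among the fibroblast markers, had 2.46 CPM in Ctrl_8hr and 1.58 CPM in MMS_8hr, against 0.0787 CPM in Control, where 2 reads were counted. None of the 8 fibroblast markers, THY1 included, reached 5 CPM in either vehicle library. TFF1, a secreted trefoil peptide used among the luminal breast markers, had 1.20 CPM in Ctrl_8hr and 0.771 CPM in MMS_8hr, against 18.7 CPM with doxorubicin, 7.27 CPM with etoposide, 6.61 CPM with paclitaxel and 5.94 CPM in Control. EGFR, one of the 20 markers listed for MDA-MB231, had 521 CPM in Ctrl_8hr and 291 CPM in Control, and was the 1 of them at least 1.5-fold higher, while 3 were lower and the median log2 ratio of the list was -0.09. These genes were picked after their values were seen.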
